A study of Homo sapiens with 2 samples.

Results

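The HOX genes and the DLX genes are homeobox genes, which encode transcription factors that bind DNA through a homeodomain. They were taken from a count table of 20802 gene amplicons as every row named HOXA, HOXB, HOXC or HOXD with a number, or DLX1 to DLX6, leaving out HOXB13. This gave 43 genes, of which 37 were HOX genes (11 in HOXA, 9 in HOXB, 8 in HOXC and 9 in HOXD) and 6 were DLX genes. Expression was measured in 2 established human prostate cancer cell lines, MDA PCa 2b (spelled MDA Pca 2b in the labels), grown from a bone metastasis, and LNCaP, grown from a lymph node metastasis. The labels give both as wild type, name no treatment and put both in a single batch, with 1 library from 10 ng of total RNA for each line. Each gene was read through 1 short amplicon (AmpliSeq), so a value does not scale with transcript length. Primer pairs differ in yield, so levels were compared between the lines and not between genes.

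HOX genes lie in 4 clusters in the order in which they act along the body axis. Genes with the same number in different clusters are paralogs, low numbers pattern the head end, middle numbers the trunk, and numbers 9 to 13 the tail end, which includes the urogenital tract where the prostate forms. HOX proteins bind DNA together with cofactors of the TALE class (PBX, MEIS and PKNOX). DLX genes lie in convergent pairs and are best known for patterning the forebrain and the face. Transcripts of HOXC6 and DLX1 are read together in a urine test for prostate cancer.

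The libraries held 8558660 counts for MDA PCa 2b and 10778061 for LNCaP. A single count was worth 0.117 CPM (read counts relative to library size, with TMM factors from edgeR) in MDA PCa 2b and 0.0923 CPM in LNCaP. All 8 markers of prostate luminal cells were high in both lines, with 1647 to 15559 counts in MDA PCa 2b and 1279 to 23834 in LNCaP. The basal factor TP63 and the leukocyte marker PTPRC were at 0 in both. The 4 basal markers summed to 796 CPM in MDA PCa 2b and 16.7 CPM in LNCaP, nearly all of it KRT14. Summed fibroblast markers were at 3.76 CPM in MDA PCa 2b and 14.1 CPM in LNCaP, with COL1A2 at 0 in both, and neuroendocrine markers at 36.1 CPM in MDA PCa 2b and 20.9 CPM in LNCaP, with CHGA at 0 in both. Leukocyte markers summed to 29.6 CPM in MDA PCa 2b and 10.7 CPM in LNCaP, and endothelial markers to 4.35 CPM in MDA PCa 2b and 3.51 CPM in LNCaP. The part of these in the HOX and DLX values was not tested.

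Promoter windows are shown for HOXA6 and HOXA13, members of 1 cluster that were read in opposite lines, and for the DLX1 and DLX2 pair. Each window runs from 250 bases before to 50 after the transcript start, as RefSeq places it on GRCh38.p14, 5′ to 3′ on the gene's own strand. Capitals mark CCAAT on either strand, so that ATTGG is CCAAT on the opposite strand. HOXA6 lies at chr7:27147725-27148024 on the minus strand, HOXA13 at chr7:27200042-27200341 on the minus strand, DLX1 at chr2:172085257-172085556 on the plus strand and DLX2 at chr2:172102851-172103150 on the minus strand.
HOXA6: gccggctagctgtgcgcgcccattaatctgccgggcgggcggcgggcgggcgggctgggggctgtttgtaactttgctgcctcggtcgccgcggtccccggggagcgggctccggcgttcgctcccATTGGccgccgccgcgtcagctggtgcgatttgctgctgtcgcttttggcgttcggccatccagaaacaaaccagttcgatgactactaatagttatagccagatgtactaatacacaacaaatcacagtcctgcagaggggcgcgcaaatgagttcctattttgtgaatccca
HOXA13: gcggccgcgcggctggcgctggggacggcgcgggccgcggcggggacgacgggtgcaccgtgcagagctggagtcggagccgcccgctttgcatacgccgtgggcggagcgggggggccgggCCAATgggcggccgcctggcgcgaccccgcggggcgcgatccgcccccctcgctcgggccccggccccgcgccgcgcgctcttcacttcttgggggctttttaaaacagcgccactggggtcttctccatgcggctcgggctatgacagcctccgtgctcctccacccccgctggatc
DLX1: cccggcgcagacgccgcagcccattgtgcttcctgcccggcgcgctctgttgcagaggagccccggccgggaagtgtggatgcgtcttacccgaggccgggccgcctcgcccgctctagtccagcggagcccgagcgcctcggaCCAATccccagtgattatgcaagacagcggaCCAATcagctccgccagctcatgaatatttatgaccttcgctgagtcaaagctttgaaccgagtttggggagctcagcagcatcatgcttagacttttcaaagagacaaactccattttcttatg
DLX2: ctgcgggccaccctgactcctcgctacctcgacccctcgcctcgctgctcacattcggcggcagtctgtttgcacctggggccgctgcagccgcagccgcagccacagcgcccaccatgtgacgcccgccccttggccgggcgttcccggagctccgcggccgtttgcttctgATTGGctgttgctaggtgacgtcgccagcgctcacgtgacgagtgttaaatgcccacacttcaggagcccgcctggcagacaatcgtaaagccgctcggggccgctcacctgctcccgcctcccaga
A window was found for 22 of the 43 genes, 29 windows in all because HOXA3 and HOXA10 have several starts. The motifs searched on both strands were the CCAAT box, the GC box with the letters GGGCGG, the TATA box in its form TATAAA, the homeodomain core TAATTA, and TGATNNAT, a form of the joint HOX and PBX site. The letters of these motifs do not contain one another. CCAAT was in 20 of the 29 windows (69.0%), against 34.6% of 35116 human windows of the same length. GGGCGG was in 14 of 29 (48.3%, against 45.0%), TATAAA in 5 (17.2%, against 11.5%), TGATNNAT in 3 (10.3%, against 7.40%) and TAATTA in 2 (6.90%, against 4.84%). None of the printed windows held the TATA box, the homeodomain core or the joint site. HOXA13 had 44 CG pairs in its window, HOXA6 29, DLX1 23 and DLX2 30, against a median of 14 over all windows. HOXA3 gave several of the windows and so weighs more than the other genes, and these matches describe letters, not binding.

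MDA PCa 2b had few reads of the trunk-type genes of HOXA and HOXB and of the tail-type genes of HOXC, blocks whose sums were higher in LNCaP. HOX genes summed to 141 counts (16.6 CPM) in MDA PCa 2b and 435 counts (40.1 CPM) in LNCaP, a 2.42-fold lower sum in MDA PCa 2b (exact 95% interval 2.00 to 2.95). At least 10 counts were found for 4 HOX genes in MDA PCa 2b (HOXA10, HOXA13, HOXC6 and HOXD12) and for 14 in LNCaP. Of all 43 genes, 26 stayed under 10 counts in both lines, the highest of them at 8, and 11 were at 0 in both. DLX genes went the other way, with 104 counts (12.2 CPM) in MDA PCa 2b and 28 (2.58 CPM) in LNCaP, a sum 4.73-fold higher in MDA PCa 2b (3.09 to 7.46). Intervals are Clopper-Pearson, conditional on the counts of both libraries. They cover counting error only, because amplified reads carry no molecular identifier here and each line had 1 library.

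Genes that reached 10 counts in either library were taken as measured, and a gene was called when its whole interval lay beyond 2-fold. By this rule 9 of 17 measured members were called in either direction, against 24.1% of all 14418 measured genes. The share was 23.8% of genes with at least 2 coding exons and 10 to 78 counts in their higher library. Of the 15 HOX genes measured, 7 were lower in MDA PCa 2b and 1 was higher. Over all measured genes, 13.2% were lower in MDA PCa 2b and 10.9% higher. Among 2470 genes with at least 2 coding exons and 10 to 78 counts in their higher library, the range of the members, these shares were 12.1% and 11.7%. Of 518 measured amplicons of genes with 2 coding exons, at any count from 10 up, 87 were lower and 54 higher. Of the 15, 11 passed the count minimum only through LNCaP and 1 only through MDA PCa 2b, so they had to differ to some degree, and the count is a description. The other 3 (HOXA10, HOXC6 and HOXD12) passed in both libraries, and none of these was called apart. The median log2 ratio over the 15 was −2.46, against 0.00 over all measured genes, but it depends on the filter and the added count: it was −1.24 with a minimum of 1 count and −0.97 with 5 added counts. Of 2 DLX genes measured, 1 was higher in MDA PCa 2b and 0 were lower.

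**Figure D1:**
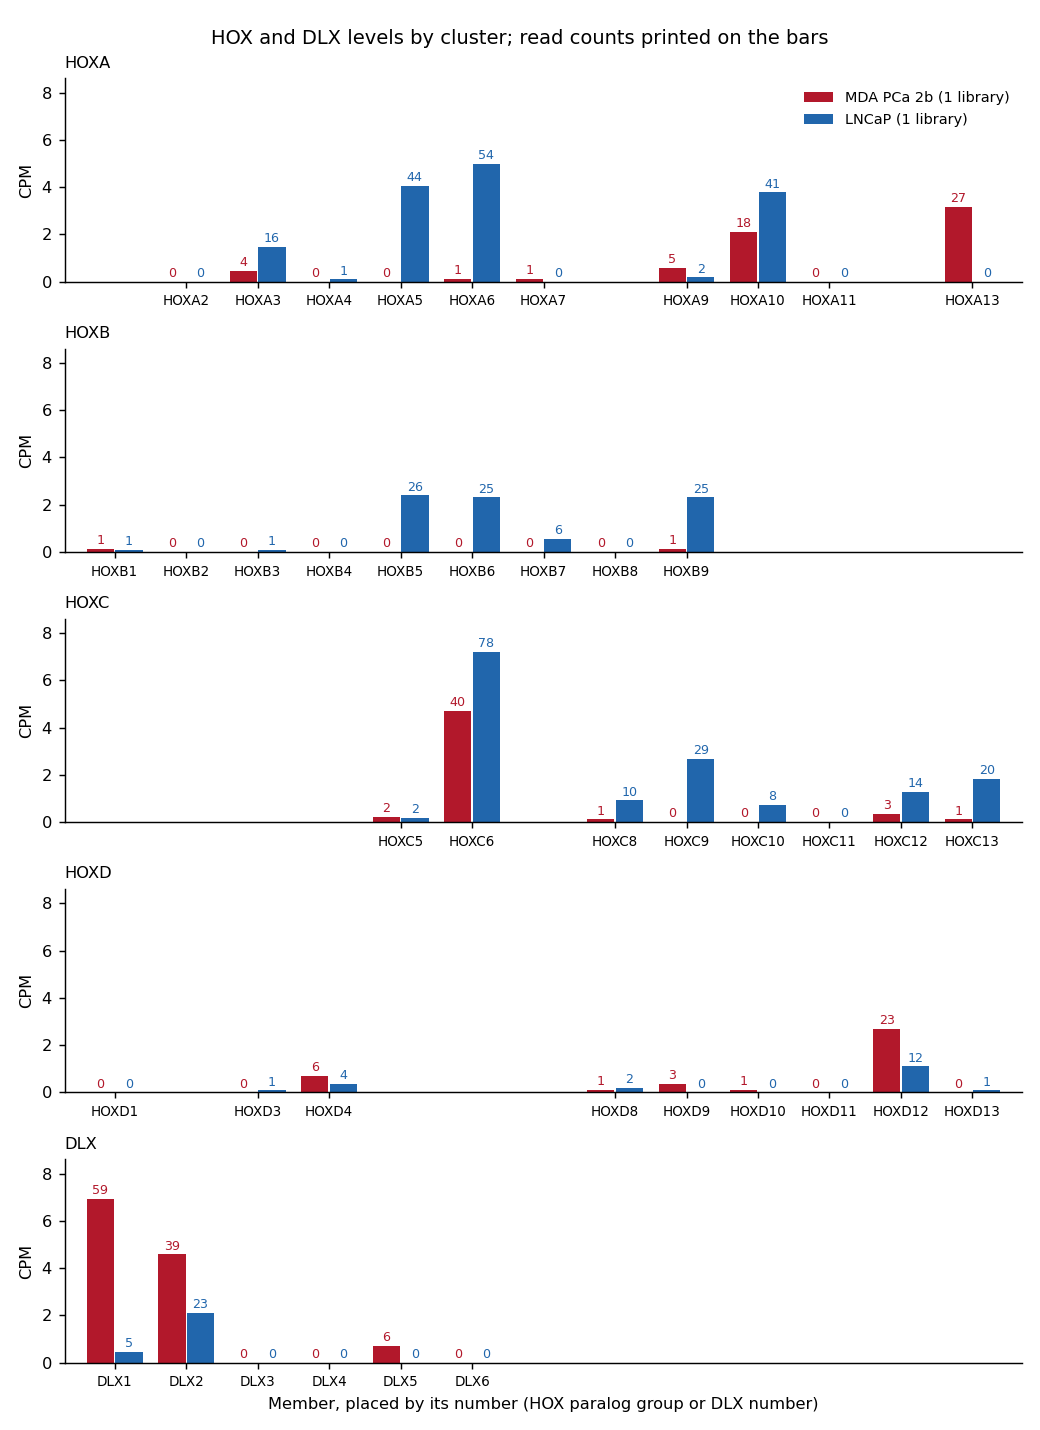
Levels of HOX and DLX genes in CPM (y axis), 1 panel per HOX cluster and 1 for DLX, with genes placed by their number (x axis). Red bars are MDA PCa 2b, blue bars LNCaP, each 1 library, and the read count stands on each bar. HOXA5 to HOXA6, HOXB5 to HOXB9 and HOXC8 to HOXC13 are nearly all blue, and HOXA13 and DLX1 nearly all red.

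In the HOXA cluster the reads of the lines lay at different positions. At the front of the cluster HOXA3, needed in mouse for thymus and parathyroid formation, had 4 counts in MDA PCa 2b and 16 in LNCaP, 3.14-fold lower (1.01 to 12.9) and not past 2-fold by its interval. HOXA2 was at 0 in both and HOXA4 had 0 counts in MDA PCa 2b and 1 in LNCaP.

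The middle of HOXA was read in LNCaP alone or nearly so. HOXA5, which in mouse is needed for lung development, had 0 counts in MDA PCa 2b and 44 in LNCaP. It was 11.5-fold lower in MDA PCa 2b with 0 set to 3 counts (interval from 8.98). HOXA6 had 1 count in MDA PCa 2b and 54 in LNCaP, 42.4-fold lower (7.29 to 1705). Their neighbour HOXA7 had 1 count in MDA PCa 2b and 0 in LNCaP. The 4 genes HOXA4 to HOXA7 summed to 2 counts in MDA PCa 2b and 99 in LNCaP, a sum 38.9-fold lower in MDA PCa 2b (10.5 to 325). In the gene table the long HOXA3 locus and the antisense gene HOXA-AS3 overlap HOXA5 and HOXA6. Strand use in the counting is not given in the sources used here, so reads of these genes cannot be told apart with certainty. The amplicon of HOXA-AS3 itself was at 0 in both libraries.

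At the tail end of HOXA, HOXA13 was higher in MDA PCa 2b and HOXA10 was not. HOXA9 had 5 counts in MDA PCa 2b and 2 in LNCaP, under the count minimum. HOXA10, which acts in the uterus and, in mouse, in the prostate, had 18 counts (2.12 CPM) in MDA PCa 2b and 41 (3.78 CPM) in LNCaP, 1.79-fold lower (1.01 to 3.31) and not past 2-fold. HOXA11 was at 0 in both. HOXA13, which patterns the hand, foot and urogenital tract, had 27 counts (3.17 CPM) in MDA PCa 2b and 0 in LNCaP. This put MDA PCa 2b 11.5-fold above LNCaP with 0 set to 3 counts (interval from 8.70). HOXA13 was the HOX gene called higher there. The 4 genes HOXA9 to HOXA13 summed to 50 counts in MDA PCa 2b and 43 in LNCaP, a ratio of 1.48 (0.965 to 2.28). HOTTIP, a noncoding RNA transcribed from the tail end of the cluster next to HOXA13, had 31 counts in MDA PCa 2b and 37 in LNCaP, a ratio of 1.07 (0.640 to 1.77). The noncoding RNA of the front end, HOTAIRM1, had 3 counts in MDA PCa 2b and 5 in LNCaP.

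The HOXB genes, here without HOXB13, were read in LNCaP and hardly at all in MDA PCa 2b. The 9 genes summed to 2 counts in MDA PCa 2b and 84 in LNCaP, a sum 33.0-fold lower in MDA PCa 2b (8.85 to 277). HOXB5 had 0 counts in MDA PCa 2b and 26 (2.40 CPM) in LNCaP, 6.81-fold lower with 0 set to 3 counts (interval from 5.15). HOXB6 had 0 counts in MDA PCa 2b and 25 (2.31 CPM) in LNCaP, 6.54-fold lower in the same way (interval from 4.94). These trunk genes are direct neighbours in the cluster. HOXB9, at the tail side of the block, had 1 count in MDA PCa 2b and 25 in LNCaP, 19.6-fold lower (3.21 to 806). Between them HOXB7 had 0 counts in MDA PCa 2b and 6 in LNCaP, and HOXB8 was at 0 in both. The front genes HOXB1, HOXB2, HOXB3 and HOXB4 had 0 or 1 count in each library. HOXB-AS3, whose locus overlaps HOXB5 and HOXB6, was at 0 in both. PRAC (now PRAC1), a prostate-expressed gene that lies inside the cluster on the tail side of HOXB9, had 5814 counts (683 CPM) in MDA PCa 2b and 3779 (349 CPM) in LNCaP, a ratio of 1.96 (1.88 to 2.04). The relation of the PRAC counts to the HOXB reads was not tested.

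In the HOXC cluster 1 gene was read in both lines and the rest mostly in LNCaP. HOXC6 had 40 counts (4.70 CPM) in MDA PCa 2b and 78 (7.20 CPM) in LNCaP, 1.53-fold lower in MDA PCa 2b (1.03 to 2.30). It held most of the HOXC reads of MDA PCa 2b, 40 of 47 counts. HOXC9 had 0 counts in MDA PCa 2b and 29 in LNCaP, 7.59-fold lower with 0 set to 3 counts (interval from 5.79). HOXC13, known as a regulator of hair keratin genes, had 1 count in MDA PCa 2b and 20 in LNCaP, 15.7-fold lower (2.51 to 651). HOXC8 had 1 count in MDA PCa 2b and 10 in LNCaP, 7.85-fold lower (1.12 to 341). HOXC12 had 3 counts in MDA PCa 2b and 14 in LNCaP, 3.66-fold lower (1.02 to 19.9). Neither HOXC8 nor HOXC12 passed 2-fold by its interval.

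HOXC10 had 0 counts in MDA PCa 2b and 8 in LNCaP, HOXC5 had 2 in each, and HOXC11 was at 0 in both. HOXC4 had no amplicon under that symbol and so was not analysed here. The 8 HOXC genes summed to 47 counts in MDA PCa 2b and 161 in LNCaP, 2.69-fold lower (1.93 to 3.81). Without HOXC6 the sums were 7 counts in MDA PCa 2b and 83 in LNCaP, 9.31-fold lower (4.32 to 23.9). In the gene table HOXC6 overlaps HOXC4 and HOXC5, and reads of overlapping loci cannot be told apart with certainty. HOTAIR, the noncoding RNA transcribed from between HOXC11 and HOXC12, had 1 count in each library.

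The HOXD genes were close to 0 in both lines except HOXD12. HOXD12, a gene of limb patterning, had 23 counts (2.70 CPM) in MDA PCa 2b and 12 (1.11 CPM) in LNCaP, a ratio of 2.44 (1.17 to 5.38) that did not pass 2-fold by its interval. HOXD4 had 6 counts in MDA PCa 2b and 4 in LNCaP. HOXD1, HOXD3, HOXD8, HOXD9, HOXD10, HOXD11 and HOXD13 had 0 to 3 counts in MDA PCa 2b and 0 to 2 in LNCaP. The 3 counts set for a gene at 0 were worth 0.352 CPM in MDA PCa 2b and 0.277 CPM in LNCaP. HOXD13, which like HOXA13 patterns the limb and the urogenital tract, was at 0 counts in MDA PCa 2b and 1 in LNCaP. The cluster summed to 34 counts in MDA PCa 2b and 20 in LNCaP, a ratio of 2.16 (1.21 to 3.97), and without HOXD12 to 11 counts in MDA PCa 2b and 8 in LNCaP, a ratio of 1.75 (0.642 to 5.01). HOXD-AS1 had 0 counts in MDA PCa 2b and 9 in LNCaP.

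**Figure D2:**
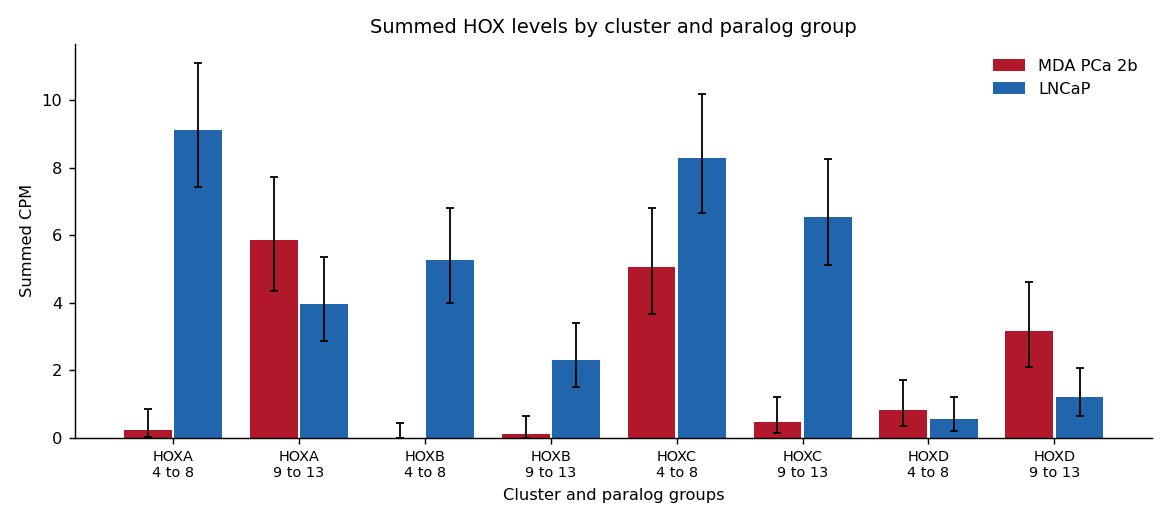
Summed CPM (y axis) of the HOX genes of each cluster by paralog groups 4 to 8 and 9 to 13 (x axis), red for MDA PCa 2b and blue for LNCaP. HOXB13 is left out. Error bars are exact 95% Poisson intervals of the summed counts. Groups 4 to 8 of HOXA and HOXB are at 0.235 and 0 CPM in MDA PCa 2b, against 9.13 and 5.26 CPM in LNCaP.

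The position of the difference along the paralog groups was not the same in each cluster. In HOXC groups 4 to 8 summed to 43 counts in MDA PCa 2b and 90 in LNCaP, 1.64-fold lower (1.13 to 2.42), while groups 9 to 13 summed to 4 counts in MDA PCa 2b and 71 in LNCaP, 13.9-fold lower (5.21 to 52.6). In HOXD groups 9 to 13 had 27 counts in MDA PCa 2b and 13 in LNCaP, 2.64-fold higher (1.32 to 5.58), and groups 4 to 8 had 7 counts in MDA PCa 2b and 6 in LNCaP. Pooled over the clusters, groups 4 to 8 summed to 52 counts in MDA PCa 2b and 252 in LNCaP, 3.81-fold lower in MDA PCa 2b (2.81 to 5.23), and 40 of the 52 were HOXC6. Groups 9 to 13, without HOXB13, summed to 82 counts in MDA PCa 2b and 152 in LNCaP, 1.46-fold lower (1.11 to 1.93). Group 5 had 2 counts in MDA PCa 2b and 72 in LNCaP, 28.3-fold lower (7.55 to 238). Group 9 had 9 counts in MDA PCa 2b and 56 in LNCaP, 4.89-fold lower (2.40 to 11.2). Group 11 was at 0 in both lines, as was group 2. Group 13, without HOXB13, had 28 counts in MDA PCa 2b and 21 in LNCaP, a ratio of 1.70 (0.930 to 3.15), but through different paralogs. HOXA13 held 27 of the 28 counts in MDA PCa 2b and HOXC13 held 20 of the 21 in LNCaP. Group 12 was similar in sum, with 26 counts in each library, of which HOXD12 held 23 in MDA PCa 2b and 12 in LNCaP.

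The DLX reads came almost wholly from the DLX1 and DLX2 pair. DLX1 had 59 counts (6.93 CPM) in MDA PCa 2b and 5 (0.461 CPM) in LNCaP, 15.0-fold higher (6.09 to 48.0). DLX2, its convergent partner, had 39 counts (4.58 CPM) in MDA PCa 2b and 23 (2.12 CPM) in LNCaP, 2.16-fold higher (1.26 to 3.79) without passing 2-fold. The intervals of the pair do not overlap, so within these counts the partners differed between the lines by unequal amounts. Beyond the pair, the third gene on the far side, RAPGEF4, had 106 counts in MDA PCa 2b and 20 in LNCaP, 6.75-fold higher (4.16 to 11.5), and the second, PDK1, was 4.72-fold higher (3.42 to 6.64). The nearest gene there, ITGA6, had 181 counts in MDA PCa 2b and 391 in LNCaP. DLX5, of the pair known for bone and craniofacial patterning, had 6 counts in MDA PCa 2b and 0 in LNCaP, and DLX6 was at 0 in both. DLX3 and DLX4 were at 0 in both.

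**Figure D3:**
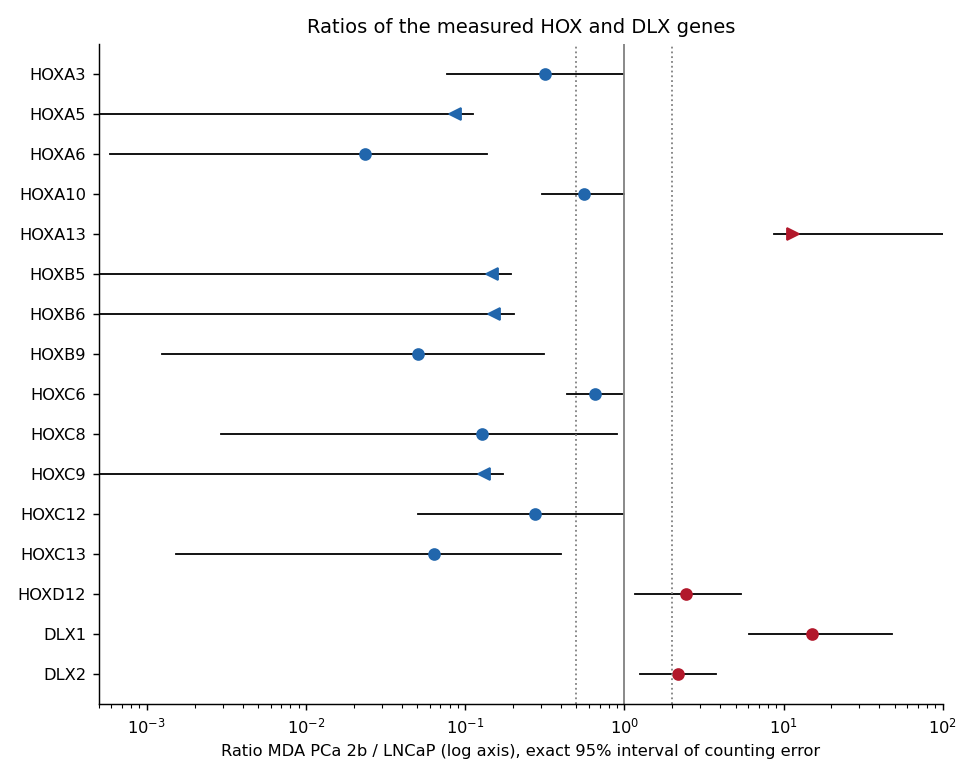
Ratio of MDA PCa 2b to LNCaP (x axis, log scale) for 16 measured HOX and DLX genes (y axis), with exact 95% intervals of counting error. Triangles mark genes at 0 in a library, drawn at their ratio with 0 set to 3 counts, and dotted lines mark 2-fold. The intervals of 7 genes lie below the left dotted line and those of HOXA13 and DLX1 above the right one.

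Counts of this size need to be read against what the assay gives for genes that prostate cells should lack. No member exceeded the median amplicon of its library in MDA PCa 2b (63 counts), and HOXC6 alone did in LNCaP (73 counts). Olfactory receptor genes, 367 of them without OR51E1 and OR51E2, had a median of 135 counts in MDA PCa 2b and 89 in LNCaP. In MDA PCa 2b 305 of them exceeded the highest member count (59), and in LNCaP 217 exceeded it (78). These receptors carry their coding sequence in a single exon, where reads from genomic DNA look like reads from RNA. The HOX genes have 2 coding exons and the DLX genes 3 in GENCODE release 29, and amplicons of genes with 2 coding exons had medians of 4 counts in MDA PCa 2b and 5 in LNCaP. The medians for 3 coding exons were 15 counts in MDA PCa 2b and 19 in LNCaP. Whether an amplicon crosses an exon junction is not given in the table.

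The olfactory receptors had a median log2 ratio of 0.93 over 354 measured, towards MDA PCa 2b. Of these 35 were called higher and 3 lower, against 10.9% and 13.2% of all measured genes. All amplicons of 1 coding exon had a median log2 ratio of 0.65. DLX2, at a log2 ratio of 1.10, and HOXD12, at 1.26, lay near the median of the receptors. The part of such reads in the value of any member, HOXA13 and DLX1 included, was not tested. The 9 members called had 0 to 5 counts in their lower library, 5 of them 0. The 46 other homeobox genes of the same class (ANTP) were close to the members in level, with a median of 0 counts in both lines, against 1 count in MDA PCa 2b and 2 in LNCaP for the members. At least 10 counts in a library were found for 28.3% of them and 39.5% of the members.

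**Figure D4:**
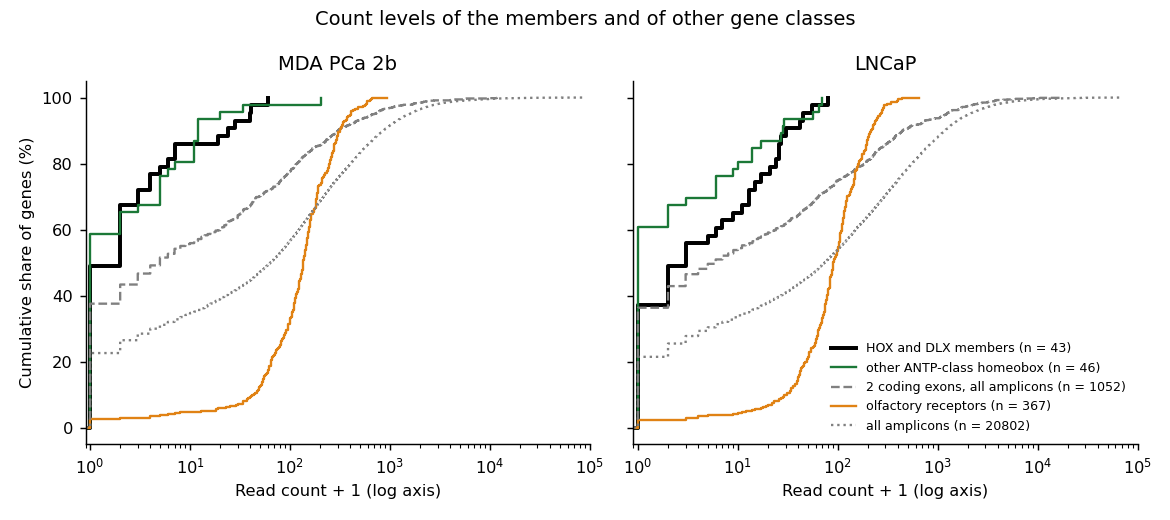
Cumulative share of genes (y axis, %) with at most a given read count plus 1 (x axis, log scale), for MDA PCa 2b in the left panel and LNCaP in the right. The thick black line is the 43 members, the green line 46 other ANTP-class genes and the orange line 367 olfactory receptors, with all 20802 amplicons dotted and 1052 of genes with 2 coding exons dashed in grey. The members lie far left of the olfactory receptors and near the other homeobox genes in both lines.

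Genes that act with the HOX and DLX factors differed between the lines in both directions. Of 9 TALE cofactors 8 were measured, 2 higher in MDA PCa 2b and 1 lower, with a median log2 ratio of 0.08. Over all measured genes 10.9% were higher and 13.2% lower, and the counts for this and the later lists are descriptions. MEIS1, a partner of HOX and PBX proteins, had 278 counts (32.7 CPM) in MDA PCa 2b and 29 (2.68 CPM) in LNCaP, 12.2-fold higher (8.31 to 18.6). MEIS3 had 12 counts in MDA PCa 2b and 1 in LNCaP, 15.3-fold higher (2.26 to 653). PKNOX2 had 22 counts in MDA PCa 2b and 154 in LNCaP, 5.50-fold lower (3.50 to 9.03). PBX2 was 2.22-fold higher (1.98 to 2.49), not past 2-fold by its interval.

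The other ANTP-class homeobox genes (46 of 47 found, 13 measured) included 3 higher and 4 lower in MDA PCa 2b, with a median log2 ratio of −0.70. The shares over all measured genes were 10.9% higher and 13.2% lower. CDX2, the factor of intestinal identity from the ParaHox relatives of the HOX clusters, had 203 counts (23.9 CPM) in MDA PCa 2b and 0 in LNCaP. It was 86.2-fold higher in MDA PCa 2b with 0 set to 3 counts (interval from 69.4). NKX2-3 and NOTO had 11 counts each in MDA PCa 2b and 0 in LNCaP. MSX2 had 0 counts in MDA PCa 2b and 64 in LNCaP, 16.8-fold lower with 0 set to 3 counts (interval from 13.2). Its relative MSX1 had 33 counts in MDA PCa 2b and 69 in LNCaP. PDX1, the pancreatic ParaHox gene, had 0 counts in MDA PCa 2b and 26 in LNCaP, 6.81-fold lower in the same way (interval from 5.15). MNX1 had 1 count in MDA PCa 2b and 27 in LNCaP, 21.2-fold lower (3.49 to 868), and EN2 had 10 counts in MDA PCa 2b and 55 in LNCaP, 4.32-fold lower (2.18 to 9.50).

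Of 16 trithorax and MLL complex genes, which keep HOX genes active, 0 were higher and 3 lower in MDA PCa 2b (median log2 ratio −0.03). These were the MLL complex subunits ASH2L, 4.84-fold lower (3.83 to 6.18), and DPY30, 2.72-fold lower (2.54 to 2.92), and the elongation factor AFF1, 2.34-fold lower (2.09 to 2.63). KAT6A, at 2.32-fold lower (1.78 to 3.03), was not called. Among 5 measured retinoic acid receptors, which turn on front HOX genes, RARG alone was called, 3.18-fold higher (2.37 to 4.32), and 0 were lower (median 0.82). RARA and RXRA stood at ratios of 1.77 and 1.57, and RXRB was 1.63-fold lower (1.36 to 1.95), none past 2-fold. Of 7 noncoding RNAs from the HOX loci, only HOTTIP reached 10 counts. Of the 43 protein-coding neighbours of the clusters and pairs that were found, 36 were measured, 4 higher and 9 lower (median −0.64). For each list in this paragraph, the shares over all measured genes were 10.9% higher and 13.2% lower. SKAP2, which flanks the front of HOXA, was 3.83-fold lower in MDA PCa 2b (3.38 to 4.36). HIBADH, beyond the tail of HOXA, was 2.14-fold lower (1.94 to 2.36), not past 2-fold by its interval. EVX1, between the tail and HIBADH, had 0 counts in MDA PCa 2b and 1 in LNCaP. CBX1, near HOXB, was 3.65-fold lower (2.41 to 5.70), and TTLL6 on its other side 3.06-fold higher (2.25 to 4.20).

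**Figure D5:**
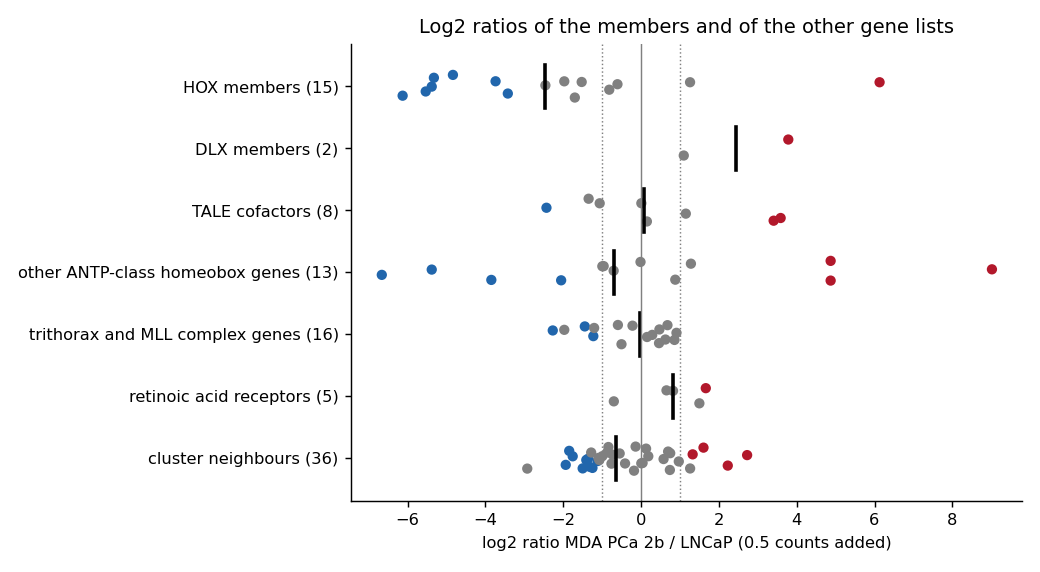
Log2 ratio of MDA PCa 2b to LNCaP with 0.5 counts added (x axis) for each measured gene of a list (y axis, number measured in brackets), red where higher and blue where lower past 2-fold, grey where not called. Black bars are medians of the genes that passed the count minimum, 11 of the 15 HOX genes through LNCaP only. In the HOX row the genes called lower are 7 blue points and HOXA13 is the red one. Positions of genes at 0 in a library depend on the added count.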

How the data were processed

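Per the labels' protocols, libraries were made with the AmpliSeq Transcriptome kit from 10 ng of total RNA. The deposited table holds raw read counts per amplicon, 1 column per line, per the file headers. The submitters' processing notes name hg19 and DESeq with no role. For the aligner, counter and filters: not given in the sources used here. Of 20812 rows, 10 spike-in rows with 0 counts were left out. Symbols turned into dates (28 rows) concern no member.

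Counts were scaled on the whole table with TMM (edgeR 4.0.16, R 4.3.3). DESeq2 1.42.0 size factors were an alternative. Ratios carry exact Clopper-Pearson 95% intervals (scipy 1.17.1). With 1 library per line no replicated test exists and no p-value was computed. Log2 ratios used 0.5 added counts, and a library at 0 was set to 3 counts to give a ratio, which is not a lower limit. Summed counts add amplicons of unequal yield. The interval and call steps were tested on simulated data with counting error only. Changes were simulated in genes with at least 50 expected counts in LNCaP. Recovery of changes at the lower counts of most members was not tested.

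Every member with at least 10 counts in a library is named, leaving out a few results not reported here, and of each other list up to 4 genes with at least 50 counts, called genes first and largest ratio first. HOXB9, HOXC13 and the other members below 50 counts follow the first rule. MEIS3, NKX2-3, NOTO, PDX1, MNX1, PRAC, TTLL6, ITGA6, HIBADH and EVX1 were named after their values were seen. The members and lists were chosen with earlier results of these data known. Gene order and neighbours came from the GRCh38.p14 gene table, a build other than the one in those notes. The promoter windows and their coordinates are on GRCh38.p14 and were not set against positions in the count table.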

Additional observations from a re-analysis of the deposited data

How the results depend on the processing

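The 17 measured genes kept direction and call under library totals, DESeq2 size factors, upper quartile scaling, TMM without small nucleolar RNAs, a minimum of 1 count, a 1.5-fold threshold and an assumed spread of 20% between libraries. With a 4-fold threshold HOXB9 and HOXC13 were no longer called. With an assumed spread of 40% HOXB5, HOXB6, HOXC9 and HOXC13 were not, leaving 3 HOX genes lower. The spread was added in full for genes at 0 in a library, and as a root of summed squares for the others. HOXB9, with 1 count in MDA PCa 2b and a wider interval than HOXB5, HOXB6 and HOXC9, therefore kept its call. The calls under a spread do not rank genes at 0 against the others. With a minimum of 50 counts 1 HOX gene was lower and 0 higher, since fewer genes were tested, and the HOXA ratio, then HOXA6 alone, was 0.0236. At 1.5-fold the summed HOXA and HOXC ratios, 0.434 and 0.372, passed the threshold by their intervals. Without HOXA6 the HOXA ratio was 0.626 (0.448 to 0.866) and did not. The summed DLX1 and DLX2 ratio of 4.46 did not pass 4-fold by its interval, nor 2-fold with a spread of 40%. Over the cofactor, other ANTP-class, trithorax and MLL, retinoic acid receptor, noncoding RNA and neighbour lists together, 10 genes were called higher and 17 lower. These became 17 higher and 25 lower at 1.5-fold, and 3 and 2 at 4-fold. With a spread of 20% they were 5 and 6, and with 40% 3 and 2. The HOX median of −2.46 became −0.97 with 5 added counts, −1.24 with a minimum of 1 count and −3.61 with LNCaP thinned to the depth of MDA PCa 2b. Depth limits all members, since none exceeded 78 counts. No paired analysis was possible because each line had 1 library.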
